A study of Mus musculus with 8 samples.

Results

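The genes described are 10 that carry, sense or take up cholesterol and lipoprotein lipid in mouse cells: Abca1, Abcg1, Lipg, Lpl, Scarb1, Apoe, Nr1h2, Nr1h3, Mylip and Cd36. They were named as a set with the array values in view, and every probe set annotated to exactly 1 of these symbols was taken. Such a probe set existed for 9 of the 10 genes, 1 for each gene, among 35557 probe sets and 19938 genes in all. Nr1h2 was not analysed here. The RNA came from whole testes of 3 Ing2+/+ and 5 Ing2-/- males of 2 to 3 months, hybridized with 1 array per mouse to Affymetrix Mouse Gene 1.0 ST arrays. The Ing2-/- mice lack Ing2, a chromatin reader of the Sin3-HDAC complex, in every cell, through a Cre-loxP deletion that takes out exon 2 and was made with an EIIa-Cre transgene later bred out. The Ing2+/+ mice were wild-type littermates.

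Values are log2 levels that the authors computed with RMA (robust multi-array average), which brings the probe intensities of all arrays to 1 distribution. A level is therefore relative to the rest of its array. The median level over probe sets still differed, from 6.41 to 6.45 on Ing2+/+ arrays and from 6.46 to 6.53 on Ing2-/- arrays. Differences are Ing2-/- minus Ing2+/+ with the standard error (SE) of a limma fit over all probe sets, and a difference of 1 is a doubling. Since the genes were chosen on this same contrast, their differences are a description and carry no p-value. Whole testis RNA mixes all testis cells, so fewer cells of a type and less RNA per cell cannot be told apart. Ing2 itself stood at 7.46 ± 0.13 (SD, n = 3) in Ing2+/+ testes and 5.29 ± 0.22 (SD, n = 5) in Ing2-/- testes, with no overlap. Of the germ cell markers that define the adult testis, 0 of 10 for round spermatids and 0 of 12 for elongating spermatids lay on all arrays below the median level of unnamed probe sets (those with no symbol), used here as a mark of low signal. Ing2-/- replicate 3 stood apart from the other arrays, with a mean correlation across probe sets of 0.983 with its own group against 0.990 to 0.992 for the other Ing2-/- arrays. Every difference of the 9 genes is therefore given with and without it.

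Liver X receptors (LXRs), encoded by Nr1h3 and Nr1h2, are nuclear receptors that bind oxysterols, the oxidized forms of cholesterol. Paired with a retinoid X receptor, they switch on genes that move cholesterol out of cells: the ATP-driven exporters Abca1 and Abcg1, the lipid carrier Apoe, and Mylip, which marks the LDL receptor for breakdown. Lipg and Lpl are lipases that work at the cell surface on circulating lipoproteins, and Scarb1 and Cd36 are scavenger receptors for lipoprotein lipid and fatty acids. In the testis, Leydig cells use cholesterol for testosterone, and Sertoli cells engulf the residual bodies and dying germ cells that spermatogenesis leaves behind.

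LXR with its partner binds a direct repeat of AGGTCA with a spacer of 4 bases (DR4). The RefSeq table of GRCm38.p6 gave promoter windows for 6 of the 10 genes, 9 windows in all, and their 250 bases before each start were searched on both strands for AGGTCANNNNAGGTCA with at most 3 mismatches in the 12 fixed letters. The E-box CACGTG, the TATA box TATAAA and the GC box GGGCGG were searched with no mismatch. Shown 5′ to 3′ are the windows of the 3 genes that lay higher in every Ing2-/- testis than in every Ing2+/+ testis and had a window, with a DR4 match and an E-box in capitals. The windows are chr4:53159896-53160145 on the minus strand for Abca1, chr7:19699189-19699438 on the minus strand for Apoe (the farthest upstream of its 3 windows) and chr13:45389492-45389741 on the plus strand for Mylip.
Abca1: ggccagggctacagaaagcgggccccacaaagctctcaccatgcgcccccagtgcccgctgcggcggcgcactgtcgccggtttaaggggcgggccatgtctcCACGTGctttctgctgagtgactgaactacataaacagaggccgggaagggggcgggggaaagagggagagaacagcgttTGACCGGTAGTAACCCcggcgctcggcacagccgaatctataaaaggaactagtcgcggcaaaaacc
Apoe: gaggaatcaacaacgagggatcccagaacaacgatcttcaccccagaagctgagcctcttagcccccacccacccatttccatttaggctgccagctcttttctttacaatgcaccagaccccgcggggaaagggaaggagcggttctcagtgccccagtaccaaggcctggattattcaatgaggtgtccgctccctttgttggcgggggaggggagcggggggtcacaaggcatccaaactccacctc
Mylip: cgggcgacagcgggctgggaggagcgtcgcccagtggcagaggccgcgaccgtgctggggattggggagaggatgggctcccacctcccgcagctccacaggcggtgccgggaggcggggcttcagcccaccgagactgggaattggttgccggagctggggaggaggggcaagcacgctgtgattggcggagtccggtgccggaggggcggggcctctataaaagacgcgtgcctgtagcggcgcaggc
Of the 9 windows, that of Abca1 was the 1 with a DR4 match. It lies at positions -67 to -52, counted with -1 as the base before the start, and reads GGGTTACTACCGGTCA on the other strand, with 3 mismatches. The same window holds the E-box at -147 to -142, GC boxes at -163 to -158 and -97 to -92, and TATAAA at -29 to -24, and none of these overlaps another. Mylip has TATAAA at -32 to -27 and a GC box at -44 to -39. The Apoe window shown has no match. Another Apoe window, chr7:19698622-19698871, has TATAAA at -100 to -95 on the other strand and at -96 to -91. The Cd36 window has GC boxes at -109 to -104 and -93 to -88. Over all 32851 promoter windows of this length, 18.5% hold a DR4 match by this rule, 6.02% the E-box, 12.4% TATAAA and 32.7% the GC box. A match describes letters, and binding was not measured.

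Nr1h3, the LXR measured here, had overlapping levels in the genotypes. Its level was 7.17, 7.20 and 7.22 in Ing2+/+ testes and 7.23, 7.20, 6.74, 7.02 and 7.08 in Ing2-/- replicates 1 to 5. Replicates 1 and 2 lay within or above the Ing2+/+ range and the other 3 below it. The difference was -0.14 (SE 0.109), and -0.06 without Ing2-/- replicate 3. Nr1h3 was the only 1 of the 9 genes with a lower mean in Ing2-/- testes.

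Abca1, which loads cellular cholesterol and phospholipid onto apolipoprotein A-I, showed the largest difference of the set. The 3 Ing2+/+ testes had 8.52, 8.63 and 8.55, and Ing2-/- replicates 1 to 5 had 9.42, 9.37, 10.48, 9.31 and 9.81. Every Ing2-/- testis was higher than every Ing2+/+ testis, and replicate 3 was the highest. The means of 8.57 ± 0.06 (SD, n = 3) and 9.68 ± 0.49 (SD, n = 5) give a difference of 1.11 (SE 0.246), or 2.16-fold, which placed Abca1 10th of the 19938 genes from the top. Without replicate 3 the difference was 0.91. The spread in Ing2-/- testes was well above the median SD of 0.132 over all genes in these testes.

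Apoe, the apolipoprotein that receives exported lipid and binds the LDL receptor family, was also higher in every Ing2-/- testis. It read 9.54, 9.56 and 9.62 in Ing2+/+ testes and 10.01, 10.18, 11.27, 10.14 and 10.40 in Ing2-/- testes. The groups did not overlap, and replicate 3 was again the highest, 1.09 above the mean of the other 4 Ing2-/- testes. The difference was 0.82 (SE 0.255), or 1.77-fold, and 0.61 without replicate 3.

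The partner exporter Abcg1, which passes cholesterol to mature HDL particles, had overlapping groups. Levels of 6.86, 7.01 and 7.03 in Ing2+/+ testes stood beside 6.84, 7.18, 7.64, 6.99 and 7.06 in Ing2-/- testes. Replicate 3 was the highest and replicate 1 the lowest of the 8 arrays. The difference was 0.18 (SE 0.161), and 0.05 without replicate 3. Mylip, the ubiquitin ligase of the LDL receptor, had 6.69, 6.68 and 6.55 in Ing2+/+ testes and 6.77, 7.01, 7.20, 6.70 and 6.93 in Ing2-/- testes. All 5 Ing2-/- values were above the 3 Ing2+/+ values, replicate 4 by about 0.01. Its difference was 0.28 (SE 0.114), and 0.21 without replicate 3.

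Of the lipases, Lipg was higher in every Ing2-/- testis and Lpl was not. Lipg, the endothelial lipase, which cleaves mainly the phospholipids of HDL, had 7.28, 7.20 and 7.32 in Ing2+/+ testes and 7.98, 8.02, 9.15, 8.19 and 8.44 in Ing2-/- testes. Replicate 3 was again the highest, and the means were 7.27 ± 0.06 (SD, n = 3) and 8.36 ± 0.48 (SD, n = 5). The difference of 1.09 (SE 0.243), or 2.13-fold, was the 11th from the top of all genes, next to Abca1, and was 0.89 without replicate 3. Lpl, the lipase of triglyceride-rich lipoproteins, had 6.36, 6.16 and 5.80 in Ing2+/+ testes and 7.01, 5.55, 6.13, 6.49 and 6.89 in Ing2-/- testes. Its lowest and its highest value were both from Ing2-/- testes. Its difference of 0.31 was about the size of its SE of 0.313, and was 0.38 without replicate 3, which was not its highest array.

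In both receptors the groups overlapped. Scarb1, the HDL receptor through which steroid-making cells take up cholesteryl ester, had 9.61, 9.76 and 9.81 in Ing2+/+ testes and 9.77, 9.90, 10.18, 9.72 and 10.03 in Ing2-/- testes. Replicates 1 and 4 lay inside the Ing2+/+ range and the other 3 above it. The difference was 0.20 (SE 0.114), and 0.13 without replicate 3. Cd36, a receptor for long-chain fatty acids and oxidized lipoproteins, had 8.02, 7.95 and 7.78 in Ing2+/+ testes and 8.28, 7.56, 9.19, 8.41 and 8.53 in Ing2-/- testes. Replicate 2 was the lowest of all 8 arrays and replicate 3 the highest. The difference was 0.48 (SE 0.294), and 0.28 without replicate 3.

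**Figure D1:**
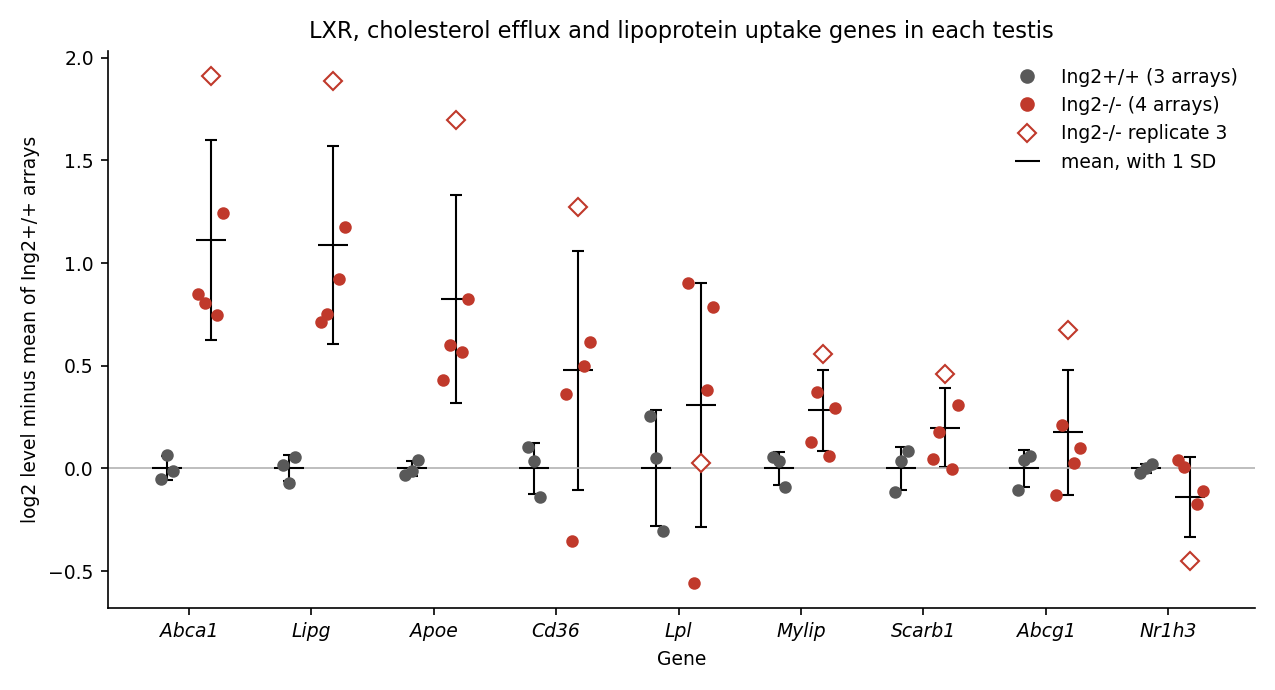
The vertical axis gives the log2 level above or below the Ing2+/+ mean for the 9 genes, ordered by difference, with 1 point per testis and the mean with 1 SD of each genotype as bars. Abca1, Lipg and Apoe lie above 0 in all 5 Ing2-/- testes, with replicate 3 (open diamond) at 1.91, 1.89 and 1.70, while Lpl and Cd36 spread to both sides of 0.

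Of the 9 genes, 8 had a higher mean in Ing2-/- testes, and their median difference was 0.31 beside 0.02 over all genes. Separate groups with Ing2-/- above were found in 4 of the 9, and in 16.7% of all genes. The set was chosen on these differences, so nothing is read from its counts. When each of the 8 arrays was left out in turn, Abca1 stayed between 0.91 and 1.20 and Lipg between 0.89 and 1.18.

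Abca1, Lipg and Apoe also lay near each other over the 8 arrays, all highest in Ing2-/- replicate 3 and next highest in replicate 5. The root mean square distance between their deviations from the Ing2+/+ mean over the 8 arrays was 0.10 for Abca1 and Lipg, 0.22 for Lipg and Apoe and 0.24 for Abca1 and Apoe. Such a distance is also small where genes share the size of their difference. In Ing2-/- replicates 1, 2 and 4 Abca1 and Lipg ran in opposite order, at 0.85, 0.81 and 0.75 against 0.71, 0.75 and 0.92. Neither gene placed an Ing2-/- testis less than 0.71 above the Ing2+/+ mean. A second group of small differences was formed by Abcg1, Mylip and Scarb1, with distances of 0.12 to 0.16. Replicate 3 was the highest of the Ing2-/- testes in 7 of the 9 genes and the lowest in 1. Over all genes it was the highest in 33.7% and the lowest in 32.8%.

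Among all genes, those whose deviations lay nearest to Abca1 over the 8 arrays were Mgarp, a mitochondrial protein of steroid-making cells (distance 0.103), Lipg (0.103), the sterol synthesis enzyme Msmo1 (0.127) and the membrane glycoprotein Emb (0.129). Their differences were 1.01 for Mgarp, 1.04 for Msmo1 and 1.17 for Emb. Nearest to Lipg were Abca1, the adhesion molecule Vcam1 (0.133), Msmo1 (0.135) and the alcohol dehydrogenase Adh1 (0.135), with differences of 0.97 for Vcam1 and 1.06 for Adh1. Likeness here reads the size of the change and its order over the arrays together.

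Leydig cell, Sertoli cell and macrophage markers peaked in the same testis as Abca1, Lipg and Apoe. A score per array was taken as the mean over a marker list of the level minus the Ing2+/+ mean, with 13 of 13 Sertoli cell, 7 of 9 Leydig cell and 12 of 12 macrophage markers measured and none of these genes among them. The Leydig cell score ran from -0.06 to 0.03 in Ing2+/+ testes and was 0.50, 0.54, 1.26, 0.36 and 0.85 in Ing2-/- replicates 1 to 5. The Sertoli cell score ran from -0.01 to 0.01 in Ing2+/+ and was 0.39, 0.32, 1.07, 0.31 and 0.55 in Ing2-/- testes. Both scores were highest in replicate 3 and next highest in replicate 5, as were Abca1, Lipg and Apoe. Abca1 and Lipg lay above both scores in each Ing2-/- testis, while Apoe lay below the Leydig cell score in replicate 1 (0.43 against 0.50) and replicate 5 (0.82 against 0.85). The genes were chosen for their differences and the scores are means over lists, so nothing is read from which is larger.

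At an adjusted p under 0.05 limma called 5 of the 7 Leydig cell markers and 1 of the 13 Sertoli cell markers higher, beside 1.97% of all genes. At an unadjusted p under 0.05, 6 Leydig cell and 11 Sertoli cell markers were higher and 0 lower, beside 16.5% and 13.5% of all genes. Macrophages, which also use Abca1 and Apoe heavily, scored -0.02 to 0.02 in Ing2+/+ testes and 0.12 to 0.59 in Ing2-/- testes, with 0 of 12 markers called in either direction and 6 at an unadjusted p under 0.05. The endothelial cell score, with all 10 markers measured, was -0.05 to 0.05 in Ing2+/+ testes and 0.10 to 0.25 in Ing2-/- testes. It did not single out replicate 3, which had 0.23. The scores of peritubular myoid cells (7 of 7 markers) and spermatogonia (9 of 9) ran to 0.46 and 0.44, both in replicate 3. By limma, 4 peritubular myoid markers were higher and 1 lower at an unadjusted p under 0.05. Of the spermatogonia markers 3 were higher and 1 lower, beside 16.5% and 13.5% of all genes. After adjustment 0 peritubular myoid markers were called, and 1 spermatogonia marker was called lower and 0 higher. Over all genes 3.01% were called lower and 1.97% higher. The scores of round spermatids (10 of 10) and elongating spermatids (12 of 12) reached down to -0.96 and -0.54 in replicate 3. At an unadjusted p under 0.05 by limma, 6 and 2 of their markers were lower and 0 higher, beside 13.5% and 16.5% of all genes. Scores of pachytene spermatocytes (9 of 9) ran from -0.39 to 0.01 over the Ing2-/- testes, those of epididymis (6 of 7) from -0.07 to 0.37 and those of red blood cells (2 of 5) from 0.11 to 0.34. The part of the cell mix in the differences of the 9 genes was not tested.

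**Figure D2:**
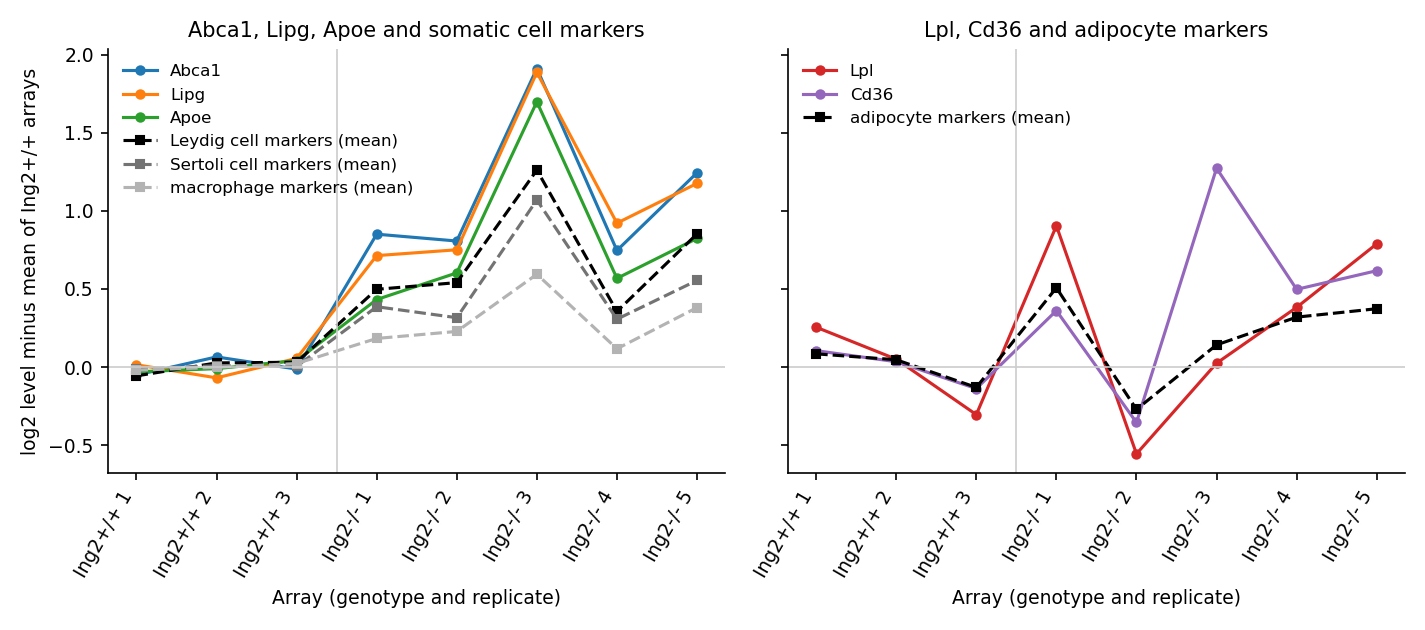
Both panels give the log2 level above or below the Ing2+/+ mean on the vertical axis for the 8 arrays, joined by lines for reading only, with marker scores dashed. Abca1, Lipg and Apoe (left) peak in Ing2-/- replicate 3 together with the Leydig and Sertoli cell scores at 1.26 and 1.07. Lpl (right) has its highest and lowest values in Ing2-/- replicates 1 and 2, as the adipocyte score has at 0.51 and -0.27.

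Lpl and Cd36 are abundant in fat cells, and fat adjoins the testis and epididymis. Of 8 adipocyte markers 6 were measured, and their score was 0.08, 0.05 and -0.13 in Ing2+/+ testes and 0.51, -0.27, 0.14, 0.32 and 0.37 in Ing2-/- testes. Its highest 3 arrays, Ing2-/- replicates 1, 5 and 4, were also the highest 3 for Lpl, and Ing2-/- replicate 2 was the lowest of all 8 for both. Cd36 was likewise lowest in replicate 2 but highest in replicate 3. Within the list, the spread came mostly from Car3, a carbonic anhydrase of fat and muscle, with 6.88, 6.82 and 6.38 in Ing2+/+ testes and 8.16, 5.29, 7.17, 7.57 and 8.19 in Ing2-/- testes. Adipoq, the fat hormone adiponectin, reached 6.17 in replicate 1 and lay between 5.40 and 5.75 in the other 7 arrays. Lep was on every array below the median level of unnamed probe sets. The part of fat tissue in the values of Lpl and Cd36 was not tested.

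The smaller differences turned with the scaling. When the arrays were shifted so that the median Sertoli cell marker was equal in all, the median difference over all genes went from 0.02 to -0.30, and each gene moved with it. On that scale Abca1 was 0.80, Lipg 0.77, Apoe 0.51 and Cd36 0.16 higher in Ing2-/- testes. Lpl (-0.01), Mylip (-0.03), Scarb1 (-0.12) and Abcg1 (-0.14) turned to the other side of 0, and Nr1h3 went to -0.45. Relative to the median of all genes the 9 genes kept their places under this shift. Cyclic loess on top of RMA left the sign of all 9 as it was, with 1.12 for Abca1 and 1.04 for Lipg.

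**Figure D3:**
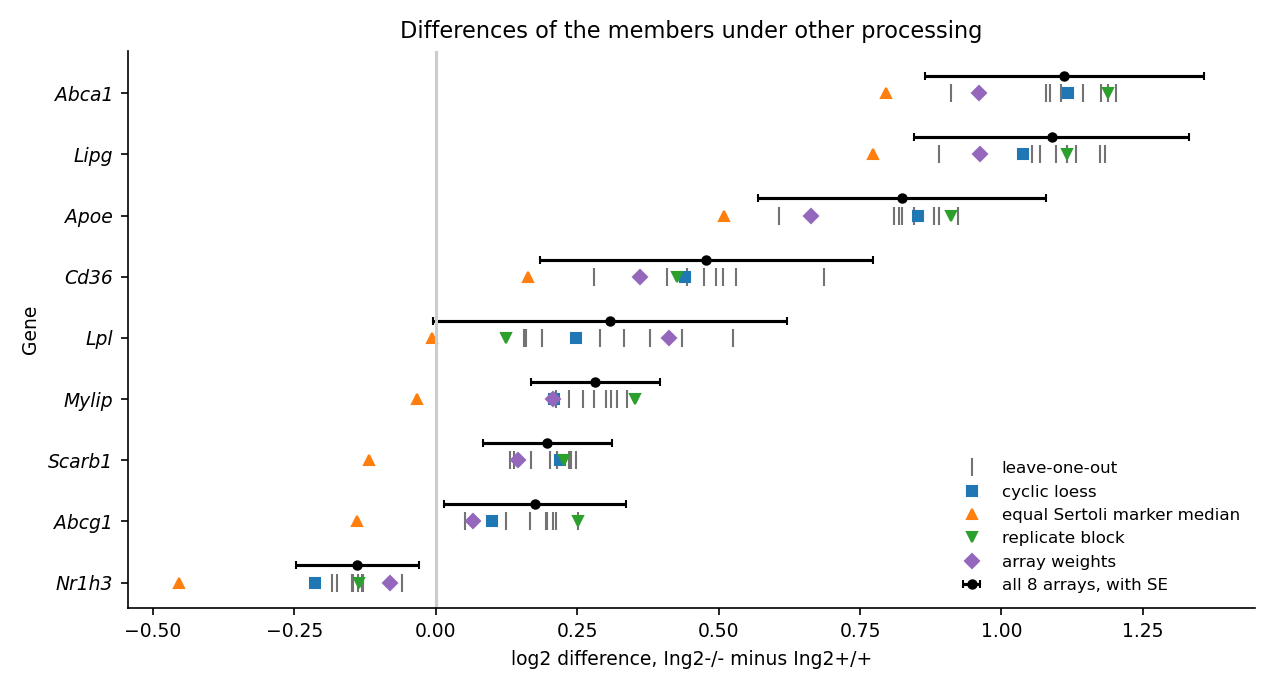
For each of the 9 genes the log2 difference, Ing2-/- minus Ing2+/+, is drawn as a black point with its SE for all 8 arrays, and below it under other processing, with grey ticks for each array left out. Abca1, Lipg, Apoe and Cd36 stay above 0 in every setting drawn, and the shift to equal Sertoli markers (orange) lies lowest for each gene.

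The surrounding pathways were read from 8 lists of 109 other genes, of which 96 were measured. At an adjusted p under 0.05 over all probe sets, limma called 6 of the 96 higher and 3 lower, beside 1.97% and 3.01% of all genes and 4.82% of all probe sets in either direction. Before adjustment, 30 had p under 0.05 as higher and 14 as lower, beside 16.5% and 13.5% of all genes. Their median difference was 0.09 against 0.02 for all genes. The calls changed when an array was left out, here as over the whole series. Higher calls among the pathway genes numbered 0 without any 1 of the 3 Ing2+/+ arrays. They numbered 2, 10 and 1 without Ing2-/- replicates 1, 4 and 5, and 22 without replicate 3. Lower calls numbered 1 without Ing2+/+ replicate 1 or 2 and 8 without Ing2-/- replicate 3. Over all 35557 probe sets, 1713 were called with all 8 arrays and 67, 49 and 445 without Ing2+/+ replicates 1, 2 and 3. Without Ing2-/- replicates 1 to 5 the number was 852, 969, 5006, 1811 and 420.

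Of 14 other LXR target genes measured, 1 was called higher and 2 lower, beside 1.97% and 3.01% of all genes, with a median of 0.23. At an unadjusted p under 0.05, 7 were higher and 2 lower, beside 16.5% and 13.5% of all genes. In 6 all Ing2-/- testes lay above all Ing2+/+ testes, beside 16.7% of all genes. Scd1, the stearoyl-CoA desaturase, had 7.58, 7.31 and 7.01 in Ing2+/+ testes and 8.66, 7.84, 8.80, 8.58 and 8.75 in Ing2-/- testes. All Ing2-/- testes were higher, with replicate 2 well under the other 4, and the difference was 1.23 (SE 0.222, adjusted p = 0.0250 by limma). Scd1 was called in 3 of the 8 fits with an array left out. Smpdl3a, a secreted phosphodiesterase, went the other way, with 7.68, 7.75 and 7.72 in Ing2+/+ testes and 6.55, 6.55, 6.61, 6.44 and 6.65 in Ing2-/- testes. Its fall of 1.16 on the log2 scale (SE 0.0668, adjusted p = 3.95e-04 by limma) was even over the 5 testes, and it was called in each of the 8 fits with an array left out. Abcg8, which forms a sterol exporter with Abcg5 in liver and gut, had a level of 5.99 to 6.18 in Ing2+/+ and fell by 0.69 on the log2 scale (SE 0.0842, adjusted p = 0.00920 by limma). All 5 Ing2-/- levels of Abcg8, from 5.20 to 5.48, lay below the median level of unnamed probe sets on their arrays. Abcg8 was called in 6 of the 8 fits with an array left out. The lipid synthesis genes Scd2 and Fasn and the apolipoprotein gene Apoc1 were higher in all 5 Ing2-/- testes without passing the test, with differences of 0.84, 0.58 and 0.78 (adjusted p = 0.0581, 0.0583 and 0.0593 by limma).

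No LXR partner or cofactor passed the test, of 10 measured, where 2 were higher and 1 lower at an unadjusted p under 0.05. The nearest were Hdac3, the deacetylase of the corepressor complex, with a difference of 0.35 (adjusted p = 0.0562 by limma), and the coactivator Ncoa6 with -0.26 (adjusted p = 0.103). The median of the list was 0.01. Over all genes 16.5% were higher and 13.5% lower at an unadjusted p under 0.05, and 1.97% and 3.01% were called. Of 7 measured genes that make or break down oxysterols, the LXR ligands, 0 were called. At an unadjusted p under 0.05, 2 were higher and 1 lower, beside the same shares of all genes. Cyp27a1, which hydroxylates the side chain of cholesterol, had 7.15, 7.14 and 7.25 in Ing2+/+ testes and 7.40, 7.48, 8.25, 7.59 and 7.97 in Ing2-/- testes. It was higher in all 5, by 0.56 (SE 0.185, adjusted p = 0.101 by limma), and did not pass. The bile acid enzyme Hsd3b7 had a difference of 0.21 (adjusted p = 0.116).

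Beside Abca1 and Abcg1, all 11 listed lipid transporters and HDL proteins were measured, and Abca5, a transporter of late endosomes and lysosomes, was the 1 called, 0.46 higher (SE 0.0806, adjusted p = 0.0231 by limma). Of 16 measured genes of cholesterol transport within the cell, 2 were called higher and 1 lower. Over all genes 1.97% were called higher and 3.01% lower. At an unadjusted p under 0.05, 5 of the 16 were higher and 5 lower, beside 16.5% and 13.5% of all genes. Npc2, which hands cholesterol on in the lysosome, was 0.47 higher (adjusted p = 0.0201) and the sterol carrier Stard4 0.48 higher (adjusted p = 0.0430), while the oxysterol-binding protein relative Osbpl1a fell by 0.43 on the log2 scale (adjusted p = 0.0148), all by limma. In each of these 4 genes all Ing2-/- testes lay on 1 side of all Ing2+/+ testes. Their values were far less spread than those of Abca1, with SDs of 0.07 to 0.13 over the 5 Ing2-/- testes. Differences of this size are called only where the spread is small, so nothing is read from these SDs. Of the 8 fits with an array left out, Abca5 was called in 4, Npc2 in 5, Stard4 in 3 and Osbpl1a in 6.

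The remaining lists held genes that work beside the lipases, receptors and fatty acid carriers, and their calls stand beside 1.97% of all genes called higher and 3.01% lower. Sel1l, an adaptor of the endoplasmic reticulum that Lpl needs to mature, rose by 0.31 (SE 0.0706, adjusted p = 0.0469 by limma), the 1 call of 10 measured lipase genes. With the arrays shifted to equal Sertoli cell markers its difference was -0.01, and it was called in 2 of the 8 fits with an array left out. Of 13 other lipoprotein receptors and regulators 0 were called. At an unadjusted p under 0.05, 4 were higher and 1 lower, beside 16.5% and 13.5% of all genes. The macrophage scavenger receptor Msr1 had a difference of -0.48 (adjusted p = 0.0604) and the receptor chaperone Lrpap1 one of 0.36 (adjusted p = 0.0655). Of 15 measured genes of fatty acid uptake, Slc27a3, an acyl-CoA synthetase of the fatty acid transport family, was the 1 called, 0.50 higher (SE 0.109, adjusted p = 0.0415 by limma). Slc27a3 was called in 2 of the 8 fits with an array left out.

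**Figure D4:**
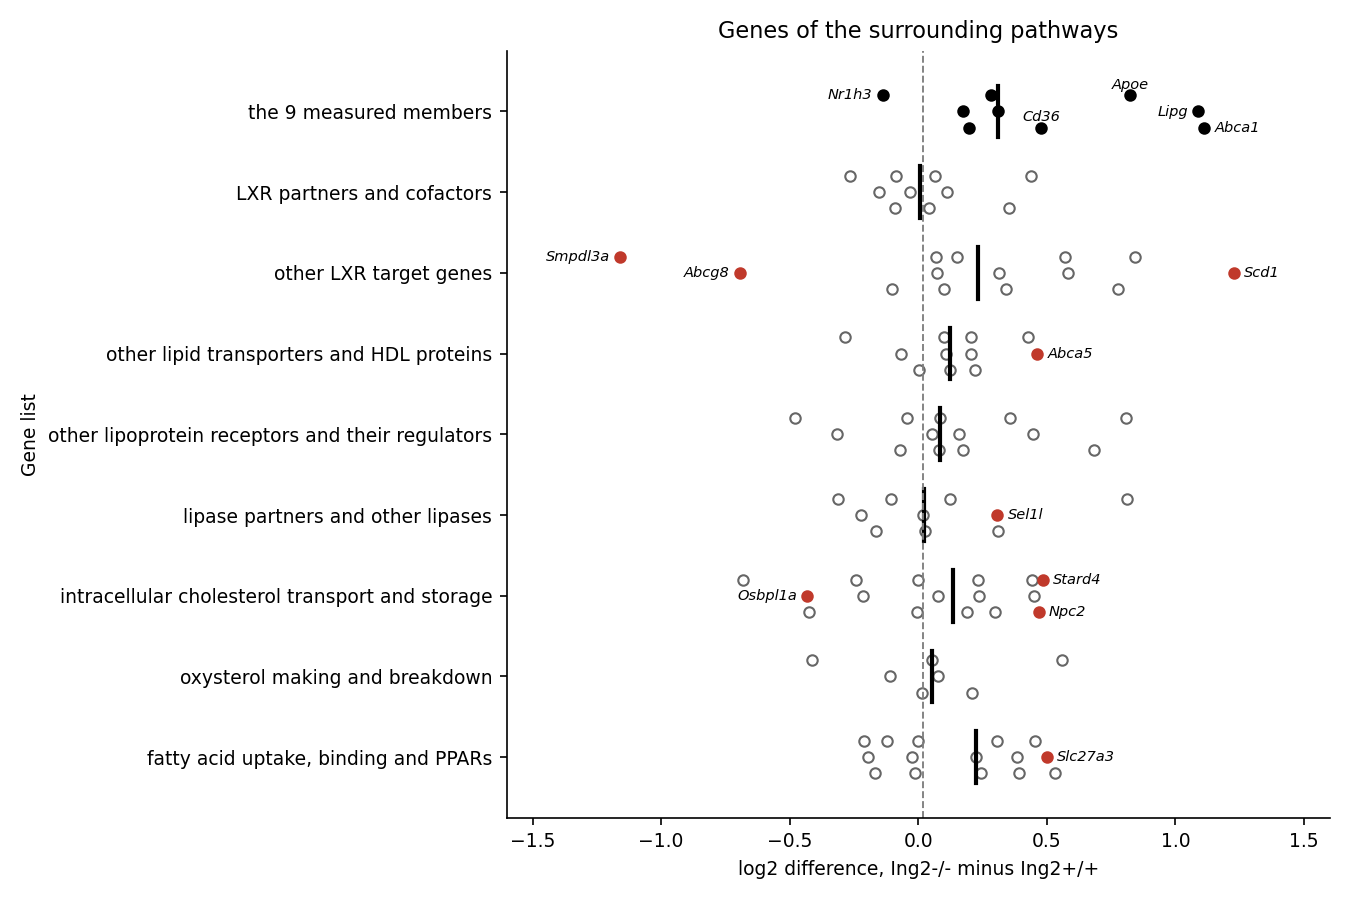
Each row is a gene list and each circle a gene, placed by its log2 difference, Ing2-/- minus Ing2+/+. Black circles are the 9 genes described, red circles the 9 pathway genes called by limma, open circles genes not called, vertical bars list medians and the dashed line the median of all genes at 0.02. Scd1 lies to the right at 1.23, near Abca1 and Lipg, and Smpdl3a and Abcg8 lie to the left at -1.16 and -0.69.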

How the data were processed

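The deposited log2 values were made by the authors with RMA in Affymetrix Expression Console (version not given in the sources used) and annotated with NetAffx release 28. They were used as they stand, and the scanner files were not analysed here. Symbols were brought up to date by gene identifier from the GRCm38.p6 table for 21698 of 21789 probe sets with 1 symbol; 1621 had several symbols and 12147 none, and these name no gene. A gene with several probe sets is stood for by the brightest.

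The test was limma's (version 3.58.1, R 4.3.3; lmFit, then eBayes) on genotype alone, with p-values adjusted over 35557 probe sets by Benjamini-Hochberg and a threshold of 0.05. It called 1713 probe sets. The methods' random variance model was an alternative. The script was tested on simulated data. The number of arrays limits the precision. Replicates are separate mice.

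The genes described, the 8 pathway lists, the 12 marker lists and the tests were chosen with earlier results of these data known. Named are the 9 measured genes, Ing2, up to 4 called genes of each pathway list with the largest difference (where none was called, the 2 of smallest p) and the 4 genes nearest in pattern to Abca1 and to Lipg. Car3, Adipoq, Lep, Scd2, Fasn and Apoc1 were named after their values were seen. Promoter sequences are RefSeq's, build GRCm38.p6; positions of probe sets were not used. Figures used matplotlib 3.10.9 (Python 3.11.15).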

Additional observations from a re-analysis of the deposited data

Results flagged for a closer look

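For the 50 items examined (genes, marker scores and pathway list scores), the gap between the most extreme of the 5 Ing2-/- testes and its nearest neighbour was divided by the range of the 5. It passed Dixon's critical value of 0.71 in 4 cases, and chance gives about 1 in 20; none of the 4 was among the 9 genes described. Hdac3 had a ratio of 0.723 with Ing2-/- replicate 3 highest, and Emb one of 0.792, also with replicate 3 highest. The round spermatid score had 0.750 with replicate 3 lowest. Scd1 had 0.768 with replicate 2 lowest, at 7.84 against 8.58 to 8.80 in the other 4.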

How the results depend on the processing

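Abca1, Lipg, Apoe and Cd36 stayed higher and Nr1h3 lower in Ing2-/- testes in all alternatives run, over ranges of 0.80 to 1.20, 0.77 to 1.18, 0.51 to 0.92, 0.16 to 0.69 and -0.45 to -0.06. The limma calls held less well. With all 8 arrays it called 1713 probe sets, 6 pathway genes higher and 3 lower, and the 9 genes had a median difference of 0.31. Leaving out 1 array gave 49 to 5006 probe sets, 0 to 22 higher, 1 to 8 lower and a median of 0.24 to 0.52, the last without Ing2-/- replicate 2. Dropping Ing2+/+ replicates 1, 2 or 3 left 67, 49 or 445 probe sets, and dropping Ing2-/- replicates 1, 2, 3 or 5 left 852, 969, 5006 or 420. The shift to equal Sertoli cell markers gave 242 probe sets, 0 higher, 1 lower, a median of -0.0071 and -0.0086 for Sel1l. Array weights gave 6565 probe sets, 24 higher and 12 lower. The random variance model at an unadjusted p under 0.001 gave 944 probe sets and 3 higher. Keeping probe sets above the median level gave 13 higher, adjusting over probe sets with 1 symbol 12 higher and 6 lower, averaging the probe sets of a gene 12 higher and 7 lower, and cyclic loess 6 lower. The alternatives that drop or merge probe sets also adjust over fewer tests. The cause of these changes was not tested.

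The sample labels do not say whether equal replicate numbers pair the mice. Deviations of same-numbered arrays had r of -0.06, 0.18 and 0.01, and those of arrays with different numbers -0.11 to 0.14. So few values cannot decide whether the mice were paired. With the replicate number as a block, 0 probe sets and 0 pathway genes in either direction were called, and the comparison then rests on replicates 1 to 3.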
